A study of Mus musculus with 9 samples.

Results

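The genes of cholesterol efflux and of its control by the liver X receptors (LXR) were followed in BV2 cells, an immortalized mouse microglial line. The 10 genes, picked by name from the 54532 genes of the deposited table, were Abca1, Abcg1, Scarb1, Nr1h2, Nr1h3, Mylip, Npc1, Npc2, Soat1 and Ch25h. Of these, 9 reached the minimum mean of 0.2 FPKM and were tested, among 16123 genes in all, and Ch25h did not. RNA was sequenced in 3 groups of 3 libraries. The control group (Ctrl, treatment "normal") had complete medium with 10% serum. The OGD group had oxygen-glucose deprivation, which was low-glucose medium with 4% serum at 4% oxygen. The OGD + A-485 group had the same deprivation with A-485, which blocks the histone acetyltransferase P300. In the cell experiments that preceded sequencing, OGD lasted 24 h and A-485 was at 50 μM, and neither is restated for the libraries. Oxygen, glucose and serum changed together, and no group had A-485 without OGD, so their separate parts cannot be told apart. All libraries came from a single cell line. The labels do not say whether the 3 libraries of a group came from separate cultures, so the p-values measure only the spread between these libraries.

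Cells cannot break down the sterol ring, and excess cholesterol is therefore exported, esterified or sensed. Cholesterol taken up with lipoproteins or with engulfed membranes such as myelin is released in the lysosome, where NPC2 hands it to the membrane protein NPC1. It can then be esterified by SOAT1 for storage in lipid droplets, or passed to lipoprotein particles by the transporters ABCA1 and ABCG1. The receptors LXRα (Nr1h3) and LXRβ (Nr1h2) bind oxysterols and sterol intermediates as partners of RXR and raise transcription of Abca1, Abcg1, Mylip and Apoe. In microglia this route is known for the clearance of myelin debris.

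The reads recovered from FPKM came to between 12593250 and 16091038 on genes per library. The share of the top 10 genes was 5.38% to 6.37%. Of 12 microglia and macrophage markers, 11 had a mean of at least 1 FPKM, and P2ry12 was at most 0.298 FPKM in any library. The summed level of these 12 markers was 471 to 488 FPKM in control, 603 to 622 under OGD and 1080 to 1109 under OGD + A-485, so the groups differed in it without overlap. The summed markers of astrocytes, neurons, oligodendrocytes, endothelial cells and fibroblasts reached at most 3.78 FPKM for any cell type in any library. The astrocyte markers Aqp4 and Slc1a3, the oligodendrocyte markers Mag and Mog and the endothelial marker Cldn5 were at 0 in every library. So were the fibroblast markers Col1a2 and Dcn. The endothelial marker Vwf averaged 0.677 FPKM in control, 1.41 under OGD and 3.27 under OGD + A-485. The summed endothelial markers did not overlap between groups, at 0.935 to 0.957, 1.68 to 2.19 and 3.40 to 3.78 FPKM in this order. Those of oligodendrocytes did not overlap either, at 1.44 to 1.55, 1.70 to 2.36 and 1.02 to 1.31 FPKM.

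The start of Abca1 is shown first, since LXR is known to act there and Abca1 is among the genes described below. The RefSeq promoter table (GRCm38.p6) held 8 promoters of 7 of the 10 genes, and Abcg1, Scarb1 and Npc1 had no entry. The windows run from 250 bases before to 50 bases after the start of transcription, and only bases before the start are printed. The 250 bases before the start of Abca1 (chr4:53159896-53160145, minus strand) carry in capitals an E-box (CACGTG), a DR4 repeat and a TATA box (TATAAA), in this order.
Abca1: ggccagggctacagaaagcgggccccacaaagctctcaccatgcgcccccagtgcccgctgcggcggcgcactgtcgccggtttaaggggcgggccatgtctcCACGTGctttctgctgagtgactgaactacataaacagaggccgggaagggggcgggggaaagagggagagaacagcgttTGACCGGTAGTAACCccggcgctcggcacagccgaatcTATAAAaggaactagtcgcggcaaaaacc

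DR4, the spaced direct repeat that LXR is known to bind together with RXR, was searched on both strands as GGTNA, then 5 bases of any kind, then GGTNA. In Abca1 it lay from 67 to 53 bases before the start and matched as the reverse complement of the printed strand, as it did in Srebf1 and Fasn, so the capitals read TNACC where the motif reads GGTNA. It did not overlap the E-box or the TATA box. Of all 32851 promoters in the table, 0.718% held this motif, 7.15% the E-box letters and 13.6% the letters TATAAA. Each was counted on both strands and anywhere in the window, so the last share is not one of TATA boxes. Among the 8 promoters of the 10 genes, Abca1 alone held the DR4 letters and alone held the E-box, while TATAAA was also in those of Mylip and Ch25h. None of the 8 held the sterol regulatory element searched as TCACNCCAC, which 1.24% of all promoters held. Among 17 promoters of 12 other LXR targets, DR4 was found in 1 promoter of Srebf1, which encodes the lipogenic factor SREBP1, and 1 of Fasn, the fatty acid synthase. They are printed with the DR4 match in capitals beside that of Abca1. The 15 matched letters of Abca1 and Fasn were identical.
Abca1 (chr4:53159918-53159992, minus strand): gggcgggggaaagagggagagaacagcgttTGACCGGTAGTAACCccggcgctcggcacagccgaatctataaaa
Srebf1 (chr11:60210609-60210683, minus strand): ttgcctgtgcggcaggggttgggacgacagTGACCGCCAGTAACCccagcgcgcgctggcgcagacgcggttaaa
Fasn (chr11:120824728-120824797, minus strand): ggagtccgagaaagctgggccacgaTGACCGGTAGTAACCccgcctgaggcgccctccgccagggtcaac

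A letter match describes the window and says nothing about binding, and the RNA of these 3 genes did not move alike. On the log2(FPKM + 0.1) scale, the fold change with OGD was 0.02 for Abca1, 0.07 for Srebf1 and -0.93 for Fasn, and that with A-485 added to OGD was 0.97, -0.25 and 0.32.

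A gene is called here where limma gave an unadjusted p below 0.01 and the log2 fold change exceeded 0.5 in size, thresholds taken over from the study. With OGD against control, 2 of the 9 tested genes were called higher, Npc1 and Npc2, and 2 lower, Abcg1 and Mylip. Of all 16123 genes tested, 11.2% were called higher and 9.81% lower in this comparison. With OGD + A-485 against OGD, 3 were called higher, Abca1, Nr1h3 and Soat1, against 12.2% of all genes, and 0 were called lower by limma, against 13.4%. At an unadjusted limma p under 0.05, 1 gene was lower there (Scarb1), and limma-voom on recovered reads called 0. With OGD + A-485 against control, 6 were called higher, against 17.0% of all genes, and 1, Mylip, lower, against 16.6%. The libraries of the 2 groups did not overlap for 7, 8 and 8 of the 9 genes in these comparisons, against 55.4%, 56.8% and 63.8% of all genes. The median log2 fold change of the 9 genes was 0.13, 0.36 and 0.81 in these comparisons, and that of all genes 0.01, 0.01 and 0.02. The comparisons share groups of libraries and are not independent of each other. In bulk RNA, a change in the number of cells of a kind cannot be told apart from a change in RNA per cell.

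**Figure D1:**
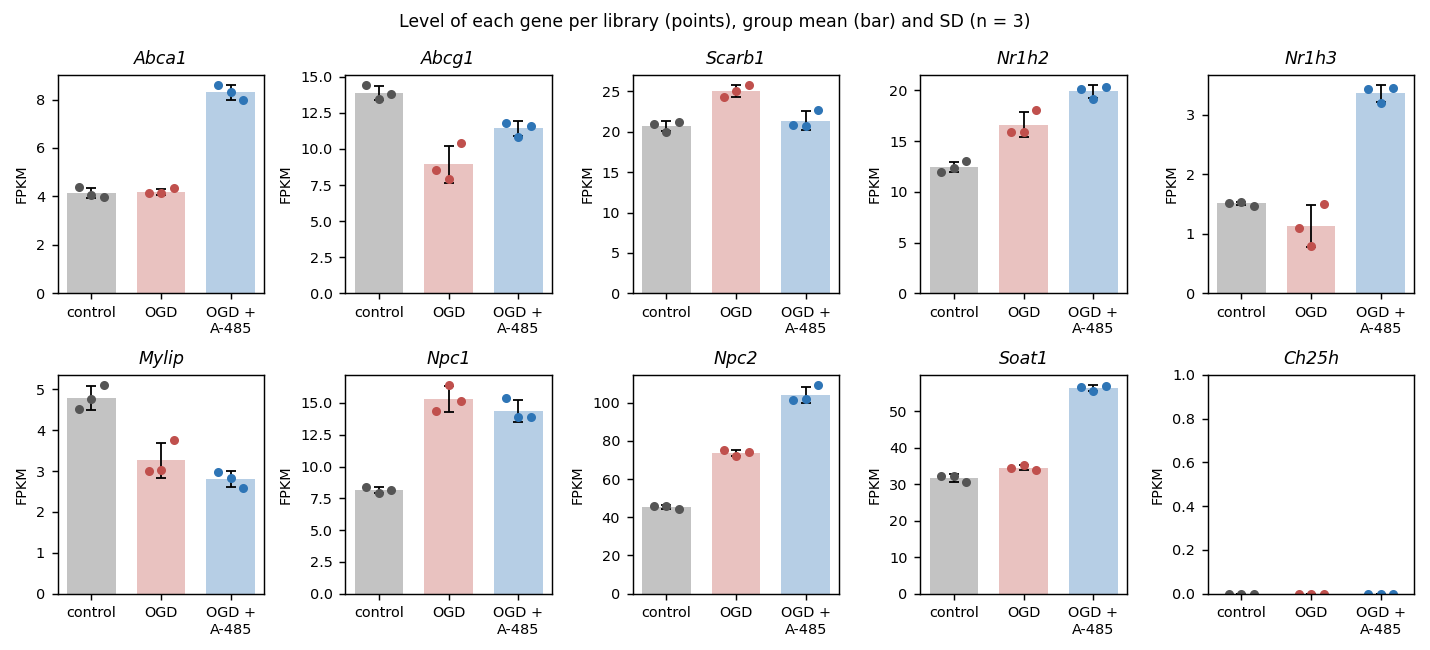
Level in FPKM (y axis, from 0) of the 10 genes in the 9 libraries (points), with the mean of each group (bar) and its SD (n = 3). Abca1, Nr1h3 and Soat1 are highest under OGD + A-485, Npc1 and Npc2 are lowest in control, and Ch25h is at 0 in every library.

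Of the exporters, Abcg1 fell with OGD and Abca1 did not. Both stood higher with A-485 added to OGD, but only Abca1 was called. ABCA1, which loads cholesterol and phospholipid onto lipid-poor apolipoproteins, is encoded by Abca1 (ENSMUSG00000015243, chromosome 4, 53030787 to 53159895 of GRCm38). Its level was 4.38, 4.06 and 3.97 FPKM in the control libraries, 4.12, 4.13 and 4.34 under OGD, and 8.60, 8.30 and 7.99 under OGD + A-485. The control and OGD libraries overlapped, and every OGD + A-485 library stood above all 6 others. The log2 fold change with A-485 was 0.97 (standard error 0.06, adjusted p = 2.93e-06 from limma), a 1.95-fold rise. That with OGD was 0.02 with a 95% interval from -0.12 to 0.16 (adjusted p = 0.807 from limma), which lies inside the threshold of 0.5. The values rest on 544 to 1359 reads per library.

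ABCG1, which adds cholesterol to mature lipoprotein particles, is encoded by Abcg1 (ENSMUSG00000024030, chromosome 17, 31057698 to 31115777). The level of Abcg1 was 14.4, 13.4 and 13.8 FPKM in control, 8.56, 7.90 and 10.4 under OGD, and 11.8, 10.8 and 11.6 under OGD + A-485. The 3 groups did not overlap, with OGD lowest and control highest. It fell with OGD by 0.64 on the log2 scale (standard error 0.09, adjusted p = 0.000514 from limma). The difference of 0.36 between OGD + A-485 and OGD (95% interval 0.15 to 0.57, adjusted p = 0.0106 from limma) was not called, nor was that of -0.28 against control (adjusted p = 0.0291). OGD replicate 3 lay nearest to control, and without it the fall with OGD was 0.75.

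The ratio of Abca1 to Abcg1, each as FPKM + 0.1, is, but for the added 0.1, free of anything that scales a whole library. It was between 0.293 and 0.308 in control, between 0.424 and 0.529 under OGD and between 0.691 and 0.768 under OGD + A-485, with no overlap between groups. The ratio was 1.58-fold higher under OGD than in control and 1.52-fold higher again under OGD + A-485 (two-sided exact permutation test, p = 0.1 for each, adjusted p = 0.107 over 15 tests). With 3 against 3 libraries no smaller p than 0.1 can be reached.

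Scarb1, which encodes the HDL receptor SR-BI, a carrier of cholesterol in both directions (ENSMUSG00000037936, chromosome 5, 125277087 to 125341094), had 20.9, 20.01 and 21.2 FPKM in control, 24.2, 25.01 and 25.8 under OGD, and 20.8, 20.6 and 22.7 under OGD + A-485. The OGD libraries stood above all others, while control and OGD + A-485 overlapped. The log2 difference was 0.27 between OGD and control (adjusted p = 0.00155 from limma) and -0.23 between OGD + A-485 and OGD (adjusted p = 0.00374 from limma), both under the threshold on size. Between OGD + A-485 and control it was 0.05 with a 95% interval from -0.06 to 0.15.

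Of the LXR genes themselves, Nr1h2 was the more abundant in every library and Nr1h3 the more responsive to A-485. Nr1h3 encodes LXRα (ENSMUSG00000002108, chromosome 2, 91184061 to 91202834). The level of Nr1h3 was 1.52, 1.53 and 1.47 FPKM in control, 1.09, 0.794 and 1.498 under OGD, and 3.43, 3.197 and 3.45 under OGD + A-485. The OGD + A-485 libraries stood far above the rest, and OGD replicate 3 lay inside the control range. With A-485 Nr1h3 rose 2.89-fold, a log2 fold change of 1.53 (standard error 0.19, adjusted p = 0.000151 from limma). Its log2 difference with OGD was -0.43 (95% interval -0.86 to -0.002, adjusted p = 0.0951 from limma) and was not called, while without OGD replicate 3 it was -0.64 and was called. Few reads lay behind these values, 26 to 53 per OGD library and 125 to 127 per OGD + A-485 library.

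Nr1h2 encodes LXRβ (ENSMUSG00000060601, chromosome 7, 44549616 to 44553951). The level of Nr1h2 was 11.96, 12.3 and 13.0 FPKM in control, 15.9, 15.9 and 18.04 under OGD, and 20.1, 19.2 and 20.4 under OGD + A-485. The groups followed each other in this order without overlap. Neither step was called, with log2 differences of 0.41 for OGD (adjusted p = 0.000509 from limma) and 0.26 for A-485 added to OGD (adjusted p = 0.00583 from limma). Across both steps Nr1h2 rose by 0.67 over control (standard error 0.06, adjusted p = 1.41e-05 from limma). The ratio of Nr1h3 to Nr1h2 was 0.120 to 0.134 in control, 0.0560 to 0.0881 under OGD and 0.171 to 0.175 under OGD + A-485. It was 2.41-fold higher under OGD + A-485 than under OGD (two-sided exact permutation test, p = 0.1, adjusted p = 0.107).

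Mylip encodes IDOL, a ubiquitin ligase induced by LXR that limits lipoprotein uptake (ENSMUSG00000038175, chromosome 13, 45389742 to 45412022). The level of Mylip was 4.51, 4.75 and 5.10 FPKM in control, 3.01, 3.02 and 3.76 under OGD, and 2.98, 2.82 and 2.596 under OGD + A-485. The groups did not overlap, and the order was control, OGD, OGD + A-485 from high to low. Mylip fell with OGD by 0.55 on the log2 scale (standard error 0.10, adjusted p = 0.00252 from limma), close to the threshold on size. Without OGD replicate 1 or without OGD replicate 2 the fall was 0.49 and was not called. The further difference of -0.21 with A-485 was not called (adjusted p = 0.132 from limma), and the 50 nearest genes on the chromosome had a median difference of -0.37 in the same comparison. Abca1 and Mylip, both known LXR targets, had opposite signs under OGD + A-485 against control, 0.99 for Abca1 and -0.75 for Mylip (adjusted p = 0.000244 from limma).

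**Figure D2:**
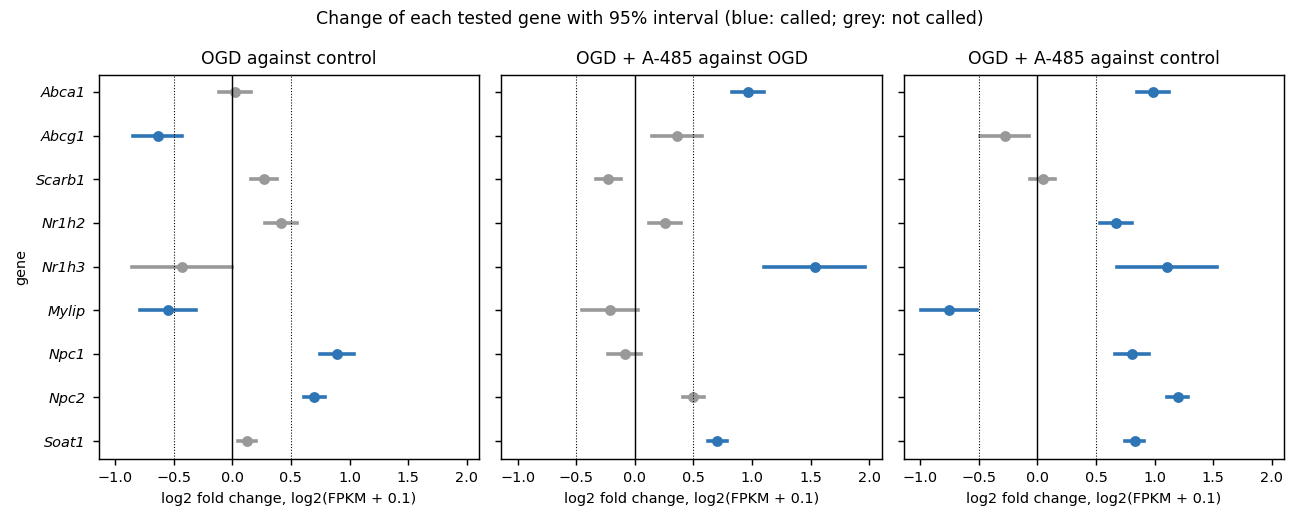
Log2 fold change of the 9 tested genes (x axis, on the log2(FPKM + 0.1) scale; points) with its 95% interval (lines) in each comparison; blue marks a called gene, grey one not called, and the dotted lines the threshold of 0.5. The largest change with A-485 is that of Nr1h3 at 1.53, and the interval of Abca1 with OGD spans 0.

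The Niemann-Pick genes were the only members called higher with OGD. Nr1h2, Scarb1 and Soat1 were also higher without overlap, but by less than the threshold on size. Mutations of either Niemann-Pick gene cause lysosomal storage of cholesterol. Npc1 encodes the lysosomal membrane protein (ENSMUSG00000024413, chromosome 18, 12189693 to 12236400). The level of Npc1 was 8.42, 7.96 and 8.18 FPKM in control, 14.3, 16.4 and 15.1 under OGD, and 15.4, 13.9 and 13.9 under OGD + A-485. All 6 deprived libraries stood above control, and those with and without A-485 overlapped. The rise with OGD was 1.86-fold, a log2 fold change of 0.89 (standard error 0.06, adjusted p = 8.41e-06 from limma). With A-485 the difference was -0.09 with a 95% interval from -0.23 to 0.06 (adjusted p = 0.293 from limma). Npc1 overlaps 967 bases of Rmc1 on the other strand (mean 9.26 FPKM in control, 10.7 with OGD and 13.2 with A-485 added), and whether the counting used strand is not given in the sources used here.

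Npc2, which encodes the soluble lysosomal carrier (ENSMUSG00000021242, chromosome 12, 84754562 to 84773152), was the most abundant of the 10 genes. The level of Npc2 was 46.1, 45.8 and 44.2 FPKM in control, 75.0, 72.1 and 74.3 under OGD, and 101.6, 101.9 and 109 under OGD + A-485. The groups did not overlap and stood in this order. Npc2 rose with OGD by 0.70 (standard error 0.04, adjusted p = 2.94e-06 from limma). The difference with A-485 was 0.50 to 2 decimals and just below the threshold on size (0.496, adjusted p = 1.12e-05 from limma), which it passed in 4 of the 9 fits that leave out a library. Against control the OGD + A-485 libraries were 2.29-fold higher (log2 fold change 1.20, adjusted p = 5.32e-08 from limma). The ratio of Npc1 to Npc2 was 0.175 to 0.187 in control, 0.192 to 0.228 under OGD and 0.128 to 0.152 under OGD + A-485, a 1.498-fold drop with A-485 (two-sided exact permutation test, p = 0.1, adjusted p = 0.107).

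Soat1 encodes the enzyme that esterifies cholesterol in the endoplasmic reticulum (ENSMUSG00000026600, chromosome 1, 156424525 to 156474331). The level of Soat1 was 32.1, 32.3 and 30.5 FPKM in control, 34.5, 35.3 and 34.0 under OGD, and 56.5, 55.5 and 57.0 under OGD + A-485. The groups did not overlap, but the step from control to OGD was small against that with A-485. Soat1 rose with A-485 by 0.70 (standard error 0.04, adjusted p = 8.45e-07 from limma), a 1.63-fold change, while the difference with OGD was 0.13 (95% interval 0.05 to 0.21, adjusted p = 0.017 from limma).

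Nceh1, which encodes the main neutral cholesteryl ester hydrolase of macrophages and so undoes the reaction of SOAT1, had 10.9, 9.30 and 9.69 FPKM in control, 5.37, 5.18 and 4.97 under OGD, and 17.1, 16.1 and 17.0 under OGD + A-485. It fell with OGD by 0.93 (adjusted p = 8.01e-06 from limma) and rose with A-485 by 1.68 on the log2 scale (adjusted p = 2.07e-07 from limma). The ratio of Soat1 to Nceh1 was 2.94 to 3.45 in control, 6.32 to 6.72 under OGD and 3.30 to 3.43 under OGD + A-485. It was 2.08-fold higher under OGD than in control and 1.96-fold lower with A-485 (two-sided exact permutation test, p = 0.1 for each, adjusted p = 0.107). Control and OGD + A-485 overlapped in it (p = 0.4, exact permutation test, adjusted p = 0.4). Soat1 rose with A-485 while its ratio to Nceh1 dropped.

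**Figure D3:**
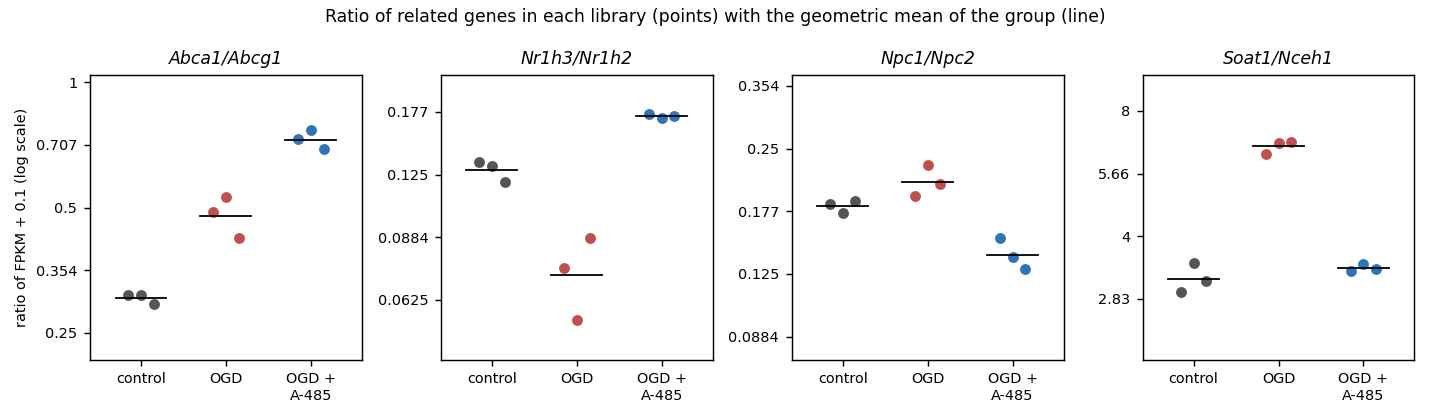
Ratio of FPKM + 0.1 of 4 pairs of related genes (y axis, log scale) in each library (points), with the geometric mean of each group (line). The 3 groups are apart in 3 of the pairs, and in Soat1/Nceh1 control and OGD + A-485 overlap near 3 while the OGD libraries lie between 6.32 and 6.72.

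Ch25h encodes cholesterol 25-hydroxylase, which makes an oxysterol that activates LXR, and is known as an interferon-induced gene of macrophages (ENSMUSG00000050370, chromosome 19, 34473786 to 34475135). It had 0 reads in each of the 9 libraries, of 127791300 reads on genes in all. At this depth a count of 0 allows up to 3 reads per library, or 0.137 to 0.175 FPKM, by counting error only. No change of Ch25h was detectable at this depth in either comparison. The overlapping antisense gene Gm26902 was at most 0.0375 FPKM.

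Across the 9 libraries, which fall into 3 groups and share their normalization, the likeness of patterns was described by Pearson's r of log2(FPKM + 0.1) among 11897 other genes averaging 1 FPKM or more. The genes most like Abca1 were Rin3 (r = 0.998), Lhfp (0.998) and Vnn3 (0.997), all near their control level under OGD and higher under OGD + A-485, and 77 genes had r above 0.99. Those most like Abcg1 were Zfp296 (r = 0.989), Map2k3 (0.983) and Ddx51 (0.983), and those most like Nr1h3 were Tmem268 (r = 0.997), Rufy1 (0.993) and Rrp7a (0.9899). Among the members, r was 0.986 between Abca1 and Soat1, 0.9747 between Nr1h2 and Npc2, and 0.07 between Abca1 and Abcg1.

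The other genes of the pathway were counted in lists. The counts of every list, those under Other observations included, stand beside the shares of all genes tested. These were 11.2% called higher and 9.81% lower with OGD, and 12.2% and 13.4% with A-485 added to OGD. Of 17 further LXR targets, 10 were tested. With OGD 1 was called higher, Apoe, and 1 lower, Fasn, and the median log2 fold change was -0.01. With A-485 added to OGD 3 were called higher and 1 lower, with a median of 0.02. Apoe, the apolipoprotein onto which microglia load cholesterol, had 166 ± 0.963 FPKM in control, 258 ± 28.6 under OGD and 558 ± 45.4 under OGD + A-485 (SD, n = 3). It rose by 0.63 with OGD (adjusted p = 0.000371 from limma), a call lost under quantile normalization, and by 1.12 with A-485 (adjusted p = 9.69e-06 from limma). The others called higher with A-485 were the low-level genes Mertk, a receptor for apoptotic cells (0.550 to 1.46 FPKM), and Pltp, a phospholipid transfer protein (0.130 to 0.452 FPKM), while Arl4c was lower (-0.50). Of the LXR targets of fatty acid synthesis, none of Fasn, Scd2 and Srebf1 was called with A-485 against OGD, with log2 differences of 0.32, -0.43 and -0.25. Fasn and Scd2 moved in opposite directions without overlap (adjusted p = 0.00167 and 3.91e-05 from limma) and missed only the threshold on size. Under OGD + A-485 against control, both Fasn (-0.61) and Scd2 (-0.71) were called lower. Fasn had 49.8, 26.1 and 32.6 FPKM in control, OGD and OGD + A-485, Scd2 162, 133 and 99.03, and Srebf1 20.4, 21.5 and 18.1. The summed microglia and macrophage markers rose in the same order as Apoe, and their part in these differences was not tested.

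Of 16 partners and coregulators of LXR, 15 were tested. With OGD 0 were called higher by limma (1 at an unadjusted p under 0.05, and 0 by limma-voom) and 2 lower, Nrip1 and Rxra, and with A-485 1 was called higher and 1 lower. Rxra, the RXR partner, fell from 18.9 to 12.6 FPKM with OGD (log2 fold change -0.58, adjusted p = 3.39e-05 from limma) and rose to 18.2 with A-485 (0.53, adjusted p = 4.55e-05). Hdac3, the deacetylase of the corepressor complex, fell with A-485 from 19.9 to 13.2 FPKM (-0.58, adjusted p = 3.24e-05 from limma). Ep300 and Crebbp, which encode the enzymes that A-485 inhibits, had log2 differences of 0.18 and 0.40 with A-485. Neither was called (adjusted p = 0.0377 and 0.00132 from limma), though for both the OGD + A-485 libraries stood above those of OGD.

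In the lysosomal and non-vesicular transport list, 15 of 16 genes were tested. OGD raised 3 (Gramd1b, Lamp2 and Gramd1a) and lowered 3 (Gpr155, Tmem97 and Scarb2). A-485 raised 5 of the 15 and lowered 1, with a median of 0.33. Lipa, the lysosomal acid lipase that frees cholesterol from its esters, had 29.5 FPKM in control and 20.9 under OGD and rose to 43.8 with A-485 (1.06, adjusted p = 4.79e-07 from limma). Scarb2, which encodes the lysosomal membrane protein LIMP-2, fell from 8.74 to 5.53 FPKM with OGD (-0.65, adjusted p = 8.5e-05) and rose to 15.8 with A-485 (1.497, adjusted p = 5.45e-07 from limma). Stard4, a cytosolic sterol carrier known as an SREBP2 target, was the gene lowered with A-485 (-1.11, adjusted p = 1.02e-06 from limma).

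**Figure D4:**
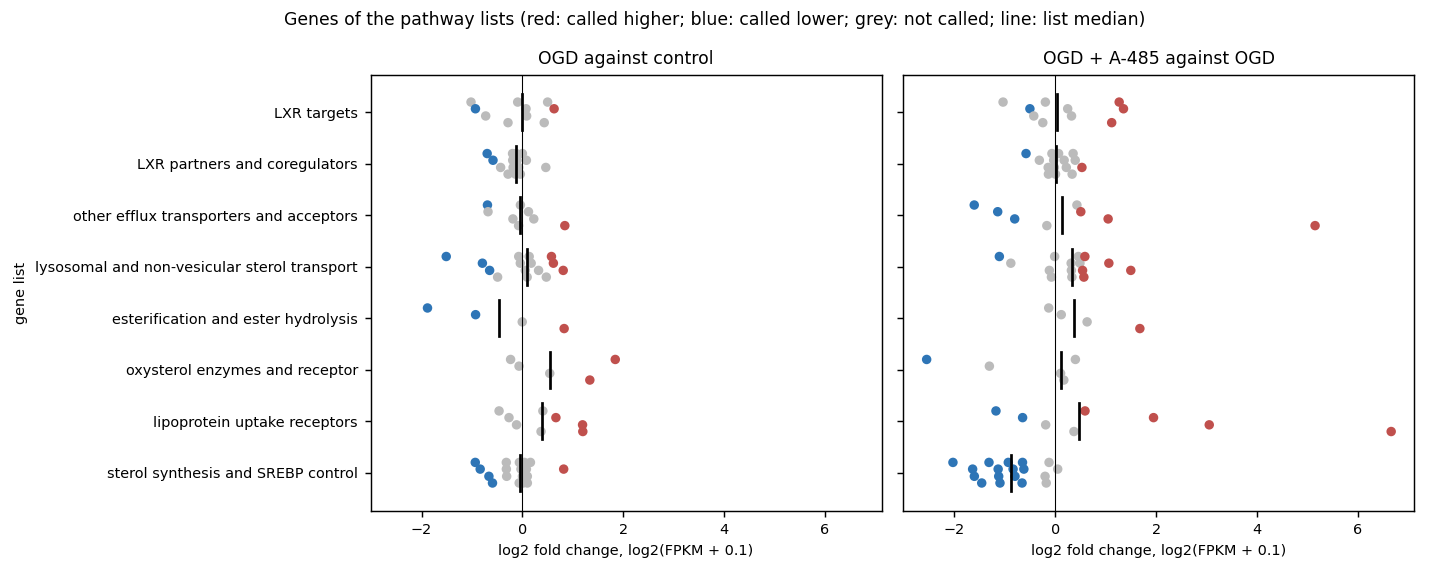
Log2 fold change (x axis, on the log2(FPKM + 0.1) scale) of the tested genes of 8 pathway lists with OGD against control (left) and with OGD + A-485 against OGD (right); red points were called higher, blue lower, grey not called, and the black line is the list's median. The list of sterol synthesis and SREBP control lies mostly to the left of 0 with A-485. Of its 18 genes, 14 were called lower, against 13.4% of all genes.

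Import and synthesis of sterol were counted too. Of 8 tested uptake receptors of 12 listed, OGD raised 3 (Stab1, Msr1 and Lrp1) and lowered 0 by limma (1 at an unadjusted p under 0.05, and 0 by limma-voom), and A-485 raised 4 and lowered 2. The scavenger receptors among those raised were Msr1 (0.995 to 8.94 FPKM, log2 fold change 3.05, adjusted p = 5.03e-07 from limma), Cd36 (2.91 to 11.5 FPKM, 1.95, adjusted p = 5.23e-06) and Marco (0.0671 to 16.0 FPKM). Among those lowered was Lrp8, a receptor for APOE and reelin (-0.65, adjusted p = 6.16e-05 from limma). Of 18 tested genes of sterol synthesis and SREBP control, of 19 listed, OGD raised 1, Insig2, and lowered 4, with a median of -0.04. With A-485, 0 were called higher by limma (0 at an unadjusted p under 0.05, and 0 by limma-voom) and 14 lower, with a median of -0.88, where 13.4% of all genes were called lower. Idi1, an isomerase of the mevalonate pathway, fell with OGD from 19.0 to 9.88 FPKM (-0.94, adjusted p = 7.18e-06 from limma) and fell further, to 2.34, with A-485 (-2.03, adjusted p = 7.46e-08). In the OGD + A-485 libraries, Abca1, Soat1, Nr1h3, Nr1h2, Npc2 and Apoe stood highest of the 3 groups. Idi1 and Stard4 stood lowest, as did the LXR targets Mylip, Scd2 and Lpcat3 and the transporters Abca2 and Abca7. Abcg1 lay between OGD and control.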

How the data were processed

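RNA of BV2 cells was sequenced in 9 libraries, mapped to 3 groups by their titles, which carry replicate numbers. The authors discarded adapter-bearing, ambiguous and poor reads, counted the rest with featureCounts and deposited FPKM for 54532 genes, scaled by gene length and library. The aligner is not given in the sources used here, and the submitters' processing notes name GRCm38 and mm10. Of the gene identifiers, 99.8% were in GENCODE M21, and 98.3% of these had its GRCm38 coordinates. FPKM times length was a whole multiple of 1 value per library for 100% of values above 0 (tolerance 0.02 reads), which gave the reads. Gene lengths are those of the file, on which levels compared between genes depend.

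Here log2(FPKM + 0.1) was fitted for genes averaging 0.2 FPKM or more over all libraries with limma 3.58.1 in R 4.3.3 (a mean per group, trended prior variance). Fold changes on this scale understate those of low genes. Adjusted p-values are Benjamini-Hochberg over all 16123 genes. The count test of the study (DESeq2) was not the main test, since the deposited unit is FPKM. Ratios of 5 gene pairs were compared with exact permutation tests, of which 1 pair is not reported here, and Python 3.11.15 with scipy 1.17.1 did the remaining steps. The limma step was tested on simulated data. The 10 genes, the lists, the pairs and the tests were chosen with earlier results of these data known. The lists were written by hand from general knowledge. Examples from a list are called genes with the largest change averaging 1 FPKM or more, and both genes of each pair; other genes named from the lists were chosen after their values were seen. The genes of like pattern are the 3 with the highest r. Intervals and limits from a count of 0 cover counting error only. Libraries of a group were distinct, with a chi-square of 2.80 to 5.73 for each degree of freedom.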

Additional observations from a re-analysis of the deposited data

How the results depend on the processing

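Of 513 values of the 27 differences of single genes under alternative settings, 509 kept their direction and 501 their call. The alternatives were a pseudocount of 1 or 0.01, a filter at 1 FPKM or none, quantile normalization, the groups compared alone, the replicate block, no trend, limma-voom on the whole reads, an adjusted p under 0.05 and each library left out. The filters, the groups alone, the block, the trend and the adjusted p leave the log2 difference itself unchanged. Leaving out a library of a group not compared does so too. For these the direction was fixed beforehand and only the call could change, so the count of kept directions overstates stability. The exceptions were differences near 0 or near a threshold. Under quantile normalization the difference of Abca1 with OGD was -0.0067, that of Scarb1 between OGD + A-485 and control -0.0076, and that of the log2 Soat1 to Nceh1 ratio in the same comparison -0.0058. With a pseudocount of 1, Mylip with OGD was -0.44 and 1 member was called lower. With a library left out, the members called lower with OGD were 1 to 3, and the differences with OGD ran from -0.0069 to 0.0622 for Abca1, from -0.64 to -0.22 for Nr1h3 and from -0.65 to -0.49 for Mylip. That of Npc2 with A-485 ran from 0.46 to 0.51. Few reads limit Nr1h3. With the median of the 50 nearest genes subtracted, differences with OGD were 0.45 for Scarb1, 0.27 for Nr1h2, 1.001 for Npc1, 0.62 for Npc2 and 0.059 for Soat1. Those with A-485 against OGD were 0.83 for Abca1, -0.36 for Scarb1, 0.16 for Mylip, 0.55 for Npc2 and 0.63 for Soat1, and those with OGD + A-485 against control 0.18 for Scarb1, 0.46 for Nr1h2, -0.47 for Mylip, 1.11 for Npc2 and 0.79 for Soat1. The cause was not tested.

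The replicate numbers are shared between groups, but same-numbered libraries did not deviate together (mean correlation -0.002, range -0.046 to 0.039). The mean of 0.001 for different numbers is no independent comparison, since deviations from a group mean cancel within the group. With the replicate block, 1740 genes were called higher and 1548 lower with OGD, against 1803 and 1581 without it, 1937 and 2109 with A-485 against OGD (1974 and 2165), and 2691 and 2626 with OGD + A-485 against control (2747 and 2684), and no call of the 10 genes changed.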

Other observations

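Of 9 other efflux transporters and acceptors, 8 were tested. OGD raised Abca5 and lowered Abca9, and A-485 raised 3 and lowered 3. Abca7, a relative of Abca1 that acts in phagocytosis and lipid handling, had 11.2 ± 0.427 FPKM in control, 12.1 ± 0.671 under OGD and 3.93 ± 0.421 under OGD + A-485 (SD, n = 3). Abca7 fell with A-485 by 1.61 on the log2 scale (adjusted p = 8.38e-07 from limma), while Abca1 rose by 0.97. Abca2 fell with A-485 from 8.76 to 3.91 FPKM (-1.14, adjusted p = 3.77e-06 from limma), and Abca9 rose from 2.03 to 4.31 (1.05, adjusted p = 3.75e-06 from limma). Abcg2, a transporter of drugs and sterol conjugates, was at 0 in every OGD library and at 3.47 ± 0.379 FPKM under OGD + A-485.

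Of 9 listed genes of oxysterol synthesis, turnover and sensing, 5 were tested. With OGD 2 were called higher and 0 lower by limma (0 at an unadjusted p under 0.05, and 0 by limma-voom). With A-485 added to OGD 0 were called higher by limma (1 at an unadjusted p under 0.05, and 0 by limma-voom) and 1 lower. Gpr183, the receptor for oxysterols made from the product of Ch25h, rose from 1.94 to 5.04 FPKM with OGD (1.34, adjusted p = 1.51e-06 from limma) and had 5.42 FPKM under OGD + A-485. Cyp11a1, which cleaves the side chain of cholesterol, rose from 1.04 to 3.96 FPKM with OGD (1.84, adjusted p = 7.9e-05 from limma) and fell to 0.603 with A-485 (-2.55, adjusted p = 8.86e-06 from limma). Cyp27a1, the sterol 27-hydroxylase, had 19.4, 18.6 and 24.5 FPKM in control, OGD and OGD + A-485 and was not called. Of 5 listed genes of esterification and ester hydrolysis, 4 were tested. With OGD 1 was called higher, Soat2, and 2 lower, Lcat and Nceh1. With A-485 added to OGD 1 was called higher, Nceh1, and 0 lower by limma (0 at an unadjusted p under 0.05, and 0 by limma-voom). Soat2, the other esterifying enzyme, rose with OGD by 0.83 (adjusted p = 7.62e-05 from limma), and Lcat fell by 1.88 with OGD (adjusted p = 0.000104 from limma).

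Smpdl3a, an LXR target that encodes a phosphodiesterase, had 0 reads in all 9 libraries, like Ch25h. It was chosen after its values were seen.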
